A study of Mus musculus with 24 samples.

Results

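The mitochondrially encoded transcripts were taken as every gene of the deposited count table whose symbol starts with mt-, which gave 37 of the 51912 genes in the table. They comprised the 13 protein-coding, 2 ribosomal RNA and 22 transfer RNA genes of the mouse mitochondrial genome. All 37 passed the low-count filter in every fit described here, mt-Tc in ventral hippocampus only through nicotine-sired sons. The study profiled RNA from the hippocampus of C57BL/6J mice whose sires had received nicotine or saline, to ask how a father's nicotine exposure bears on gene expression in the brain of the next generation. Sons and daughters of each kind of sire were sampled, and dorsal and ventral hippocampus were dissected and flash frozen separately, which gave 8 groups of 3 libraries, marked A, B and C. The titles were read as 12 animals with a dorsal and a ventral library each. No offspring treatment, age or sire dose is given in the sources used here.

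Each group carried a title number of its own (492 for nicotine-sired sons, 493 for nicotine-sired daughters, 497 for saline-sired sons and 499 for saline-sired daughters). If that number marks a sire or a litter, the 3 animals of a group are not independent, and an effect of sire treatment cannot be told apart from an effect of litter. An effect of sex, or a difference between the sexes in the effect of sire treatment, cannot be told apart from litter either. The p-values below then measure the spread between these animals alone.

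Mitochondrial DNA is transcribed from both strands as long precursors. The transfer RNAs punctuate these precursors, and their excision frees the messenger and ribosomal RNAs, most of which then receive short poly(A) tails. The heavy-strand transcript holds nearly all of the coding genes, while the light-strand transcript holds mt-Nd6 and a minority of the transfer RNAs. The encoded proteins are subunits of Complex I (the Nd genes), Complex III (mt-Cytb), Complex IV (the Co genes) and ATP synthase (the Atp genes), which in neurons supply most of the ATP for synaptic transmission.

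Transcript sequences were read from the GENCODE M21 transcripts of mouse build GRCm38 (chromosome M). The ends of 6 coding genes are printed 5′ to 3′ in the sense of each transcript, because the libraries were made from polyadenylated RNA and some of these genes reach a full stop codon only when the tail is added. Capitals mark the stop codon, or the part of it that the DNA encodes.
mt-Co1: ccaacctatgtaaaagtaaaaTAA
mt-Co3: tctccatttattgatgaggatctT
mt-Nd4: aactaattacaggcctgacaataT
mt-Nd5: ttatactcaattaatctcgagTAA
mt-Nd6: attatcgagattactcgagatTAA
mt-Cytb: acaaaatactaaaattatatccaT
In mt-Co3, mt-Nd4 and mt-Cytb the gene ended on a single T, whereas mt-Co1, mt-Nd5 and mt-Nd6 encoded TAA in full. The mt-Nd5 and mt-Nd6 genes lie on opposite strands and overlap tail to tail by 14 bp at chrM:13552-13565, so the end of each is the complement of the end of the other there. A longer overlap of 43 bp joins the reading frames of mt-Atp8 and mt-Atp6 on the heavy strand, from the start of mt-Atp6 to the stop of mt-Atp8 (chrM:7927-7969):
mt-Atp8/mt-Atp6: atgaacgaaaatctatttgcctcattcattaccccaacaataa
A full-length transfer RNA sequence is shown for the light-strand gene with the largest difference between the sire groups over both sexes in ventral hippocampus, mt-Ts1 (chrM:6870-6938, minus strand), and for its heavy-strand neighbour mt-Td (chrM:6942-7011, plus strand). They lie between mt-Co1, which mt-Ts1 overlaps by 3 bp on the opposite strand, and mt-Co2.
mt-Ts1: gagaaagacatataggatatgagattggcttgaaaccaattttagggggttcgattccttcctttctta
mt-Td: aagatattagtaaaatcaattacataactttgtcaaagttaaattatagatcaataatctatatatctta
The 22 transfer RNA genes are 59 to 75 bp long. A full-length read of 150 bases therefore reaches beyond the gene it is counted for, and the counts of these genes cannot be read as levels of mature transfer RNA.

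Library totals ranged from 32049770 to 47486547 counts. Mitochondrial genes took 7.33% to 11.8% of them (median 9.69%), of which 6.19% to 10.4% was messenger RNA, 0.864% to 1.36% ribosomal RNA and 0.0222% to 0.0586% transfer RNA genes. Counts per gene ran from a mean of 991700 per library for mt-Co1 down to 9.38 for mt-Ty. In all, 29 of the 37 genes had a mean of at least 100 counts per library. The other 8 (mt-Tq, mt-Ta, mt-Tn, mt-Tc, mt-Ty, mt-Th, mt-Ts2 and mt-Tp) are named here, and below where they passed a test, after their values were seen. The neuronal, astrocyte, oligodendrocyte, microglial and endothelial marker genes that were looked up were all detected. Summed choroid plexus markers ran from 161 to 7459 CPM (counts scaled to 1000000 per library) and were above 1500 in 8 libraries, 6 dorsal and 2 ventral, from all 4 kinds of offspring. In bulk tissue, fewer cells of a type and less RNA per cell cannot be told apart.

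Genes that arise from the same heavy-strand precursor differed widely in level. Per kb of gene, mt-Co1, the catalytic core of cytochrome c oxidase, had the highest median over the 24 libraries at 16730 CPM per kb, followed by mt-Atp6 at 15120 and mt-Atp8 at 14900. The first of these exceeded the second in 21 of 24 libraries. The order of mt-Atp6 and mt-Atp8, which share a bicistronic transcript, was not fixed, with mt-Atp6 higher in 12 of 24. Next came mt-Co3 (10880 CPM per kb) and mt-Co2 (10720), again in either order, and then mt-Cytb (7172), mt-Nd1 (6057) and mt-Nd4 (5794), with mt-Cytb above mt-Nd1 in 24 of 24 libraries and mt-Nd1 above mt-Nd4 in 20 of 24. The Complex I genes mt-Nd4l (4600), mt-Nd2 (3887), mt-Nd3 (2383) and mt-Nd5 (2071) filled the lower part of the heavy-strand range. The ribosomal RNAs mt-Rnr1 (4585 CPM per kb) and mt-Rnr2 (4224), which in total RNA would exceed every messenger RNA, stood in the middle of these poly(A)-selected libraries.

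The light-strand messenger mt-Nd6 was the lowest messenger by far in these poly(A)-selected libraries, at 104 CPM per kb. Its neighbour mt-Nd5 on the opposite strand had a per-kb level 10.3 to 28.6 times as high, in 24 of 24 libraries. Among transfer RNA genes the highest medians were those of mt-Tl1 (1194 CPM per kb), which follows mt-Rnr2, mt-Td (884), mt-Tm (799), mt-Tg (631), mt-Tw (581), mt-Ti (433) and mt-Ts1 (276). Of these 7 only mt-Ts1 lies on the light strand.

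**Figure D1:**
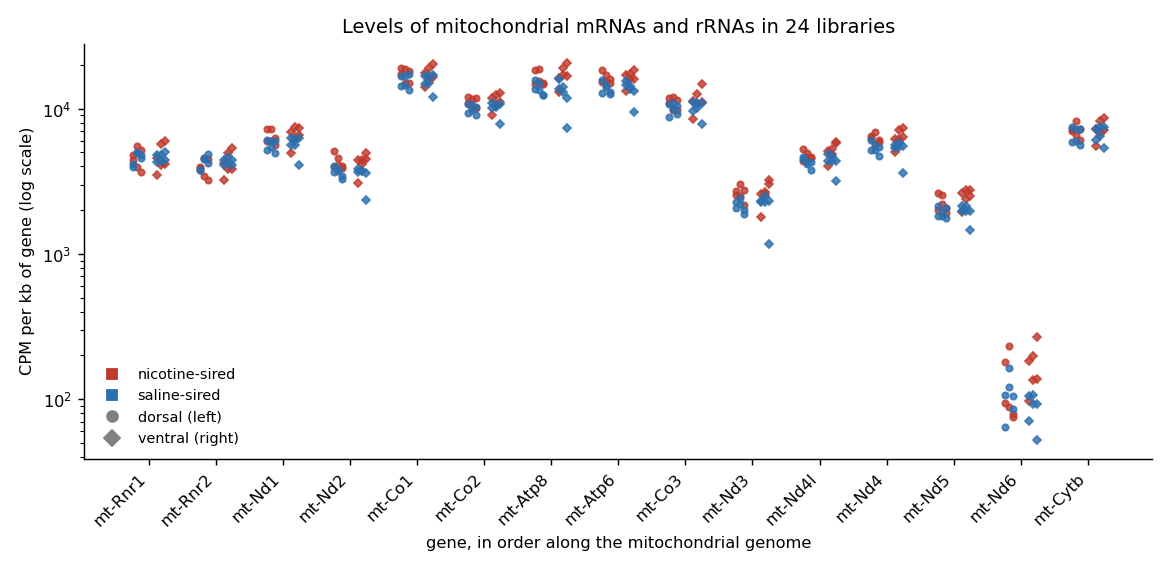
Level of each mitochondrial messenger and ribosomal RNA (CPM per kb of gene, log scale) in each of the 24 libraries, with genes in their order along the mitochondrial genome. Heavy-strand genes have medians from 2071 (mt-Nd5) to 16730 (mt-Co1) CPM per kb, and mt-Nd6 lies below all of them at 104.

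Levels of 6 messengers are uncertain because the nuclear genome holds near-identical copies that also took counts. A run of 6 annotated pseudogenes on chromosome 1 (24611535 to 24616197, GRCm38) matches mt-Co1, mt-Co2, mt-Atp6, mt-Co3, mt-Nd3 and mt-Nd4 at 99.7% identity or more. The copy of mt-Co3, Gm28437, had 1.06 to 1.12 times the counts of mt-Co3 itself. Gm10925 had 1.05 to 1.12 times those of mt-Atp6, Gm28661 1.05 to 1.12 times those of mt-Co2, and Gm28438 0.984 to 1.10 times those of mt-Nd3. The shorter copies Gm29216 and Gm28439 had 0.396 to 0.424 times the counts of mt-Co1 and 0.464 to 0.561 times those of mt-Nd4. These ranges were narrow, but some of the ratios differed by sire group. In daughters the ratios of Gm28437, Gm10925 and Gm28661 were lower with nicotine-treated sires in both regions, without overlap. For Gm28437 they were 1.063 to 1.068 against 1.108 to 1.111 in dorsal daughters and 1.064 to 1.082 against 1.099 to 1.115 in ventral daughters. In sons the ratios of Gm28437 overlapped. The part of the copies in the differences below was not tested. All 10 nuclear copies together took 3.23% to 5.36% of counts. Whether a read was divided between the places it matches or counted at each of them is not given in the sources used here.

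The share of counts from mitochondrial genes was higher in nicotine-sired than in saline-sired sons in dorsal hippocampus, without passing the test. It was 9.94%, 11.2% and 9.98% in the 3 nicotine-sired sons and 8.92%, 9.25% and 8.49% in the 3 saline-sired sons. The 2 groups of sons did not overlap. Daughters overlapped, with 10.8%, 9.39% and 9.11% against 9.68%, 9.51% and 9.56%. The exact permutation test of the dorsal share over both sexes (400 regroupings, two-sided) gave a log2 difference of 0.12, p = 0.0650 and adjusted p = 0.212. In sons alone the log2 difference was 0.22 with an exact p = 0.1, which is the smallest that 20 regroupings allow, and the difference between the sexes was −0.20 (exact p = 0.0800, adjusted p = 0.212). Adjusted values here and below cover the 36 exact tests made of 4 summed mitochondrial quantities in 9 comparisons.

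In ventral hippocampus the shares were 8.46%, 11.5% and 11.8% in nicotine-sired sons and 9.30%, 9.41% and 7.33% in saline-sired sons. Nicotine-sired son A lay among the saline-sired sons, and saline-sired son C had the lowest share of the series. Nicotine-sired daughters had 10.4%, 9.87% and 10.3% and saline-sired daughters 9.89%, 9.74% and 9.70%. Over both sexes the log2 difference was 0.17 (exact permutation p = 0.170, adjusted p = 0.322).

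**Figure D2:**
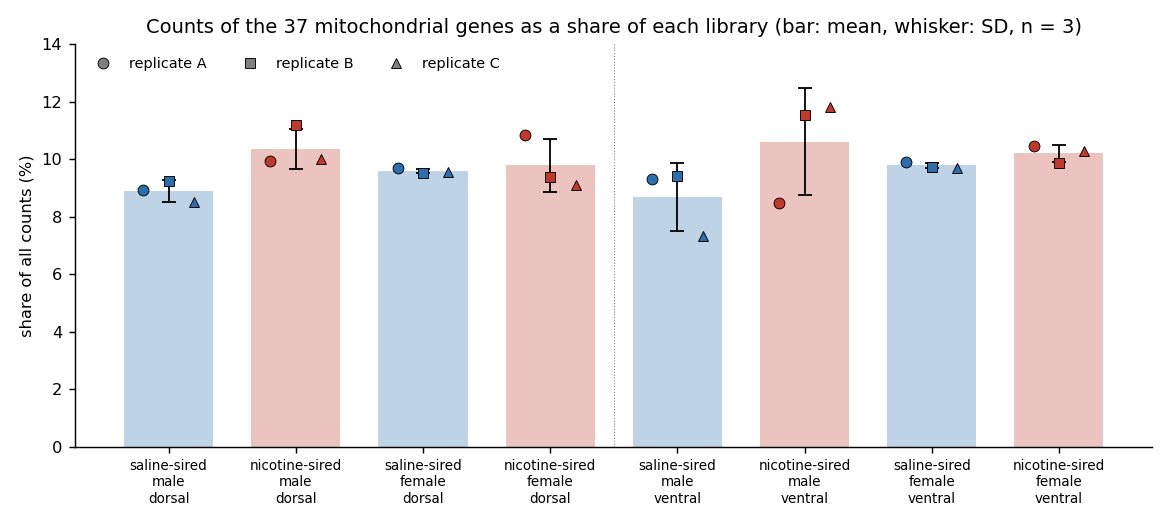
Counts of the 37 mitochondrial genes as a percentage of all counts in each library, by group (bars are means, whiskers SDs, n = 3, points the libraries A, B and C). Dorsal nicotine-sired sons (9.94% to 11.2%) lie above dorsal saline-sired sons (8.49% to 9.25%), while daughters overlap.

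Gene by gene, the heavy-strand messengers were higher in nicotine-sired sons than in saline-sired sons in dorsal hippocampus by 0.13 to 0.37 on the log2 scale. By edgeR none of them passed the test over all genes, and DESeq2 called 7 of the 12. mt-Cytb, the Complex III subunit, had 8082, 9426 and 8323 CPM in nicotine-sired sons and 6734, 6881 and 6435 CPM in saline-sired sons, a log2 difference of 0.36 ± 0.09 (SE) with an edgeR adjusted p = 0.0611. Every nicotine-sired library was above every saline-sired one. mt-Nd4 of Complex I had 8603, 9480 and 8416 CPM against 7208, 7206 and 6482, a log2 difference of 0.34 ± 0.09 (edgeR adjusted p = 0.0690). mt-Co1 had 26740, 29070 and 27980 CPM against 22250, 22370 and 20710, a log2 difference of 0.36 ± 0.10 (edgeR adjusted p = 0.0941). In these genes too the groups of sons did not overlap.

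The same pattern without overlap held for 10 of the 13 messengers in dorsal sons, all except mt-Atp8, mt-Nd4l and mt-Nd6. Of all genes with a mean of at least 0.5 CPM in a group, 13.4% separated in that direction. The heavy-strand genes share a precursor and the same libraries, so such counts here and below are not counts of independent genes. By edgeR's quasi-likelihood test 0 of the 37 mitochondrial genes were called in dorsal sons, where 1.78% of 19130 genes were called, and 16 of the 37 had an unadjusted p under 0.05 (17.6% of all genes). DESeq2's Wald test called 9 (5.18% of all genes), namely mt-Nd1, mt-Ti, mt-Co1, mt-Co2, mt-Co3, mt-Nd3, mt-Tr, mt-Nd4 and mt-Cytb. The median log2 difference of the 37 genes was 0.31, against 0.00 for all genes tested. With library sizes taken without the mitochondrial genes, edgeR again called 0.

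Daughters gave another picture in the Complex III and IV messengers. In dorsal hippocampus mt-Cytb had 8327, 7523 and 6946 CPM in nicotine-sired and 8517, 8321 and 8338 CPM in saline-sired daughters, a log2 difference of −0.13 ± 0.09. mt-Co1 had 29520, 23070 and 23380 CPM against 25830, 25980 and 26650, a log2 difference of −0.04 ± 0.10. Both pairs of groups overlapped, and nicotine-sired daughter A was the highest of its group in each. The test of the difference between the sexes in the effect of sire treatment gave −0.50 ± 0.12 for mt-Cytb (daughters minus sons, edgeR adjusted p = 0.0565), the lowest adjusted p of the 37 genes in that comparison. It called 0 of 37, where 2.24% of all genes were called. An unadjusted p under 0.05 was found for 5 of them (20.2% of all genes), and DESeq2 called 2 (7.12%). In dorsal daughters 0 of 37 were called by edgeR (0.0314% of all genes), an unadjusted p under 0.05 was found for 9 (13.3%), and DESeq2 gave 3 calls (1.54%), namely mt-Tl1, mt-Ti and mt-Td.

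In ventral hippocampus the heavy-strand messengers of sons had log2 differences of 0.27 (mt-Co2) to 0.50 (mt-Atp8). None was called by edgeR, and DESeq2 called mt-Nd5. mt-Co1 had 21640, 29480 and 31460 CPM in nicotine-sired and 23010, 23230 and 18700 CPM in saline-sired sons, with nicotine-sired son A inside the saline-sired range. The largest of these differences relative to its error was that of mt-Nd5, the longest Complex I gene, with 3538, 5051 and 5033 CPM against 3625, 3576 and 2671 (0.47 ± 0.14, edgeR adjusted p = 0.0862). Here again son A was the only nicotine-sired library inside the saline-sired range.

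Ventral daughters had smaller and tighter differences. mt-Nd5 had 4775, 4359 and 4553 CPM in nicotine-sired and 3917, 3922 and 3628 CPM in saline-sired daughters, without overlap. In ventral daughters 8 of the 13 messengers, all of Complex I or ATP synthase, lay wholly above the saline-sired libraries, where 9.84% of all genes did. mt-Cytb lay wholly below them (10.7% of all genes), with 8239, 7728 and 8171 CPM against 8294, 8497 and 8604 and a log2 difference of −0.07 ± 0.13. By edgeR 0 of 37 were called in ventral daughters (0.0312% of all genes), an unadjusted p under 0.05 was found for 3 (13.9%), and DESeq2 added 1 call, mt-Ts1 (1.40%). In ventral sons mt-Nd6 was the only messenger without overlap, where 11.6% of all genes lay wholly higher.

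The ribosomal RNAs differed from the messengers of the same precursor. Per CPM, mt-Rnr2, the large ribosomal RNA, had log2 differences of −0.03 ± 0.12 and 0.05 ± 0.14 in dorsal and ventral sons and of −0.23 ± 0.12 and −0.11 ± 0.14 in daughters, and mt-Rnr1, the small one, lay between −0.12 and 0.11. None was called. Set against the mitochondrial messengers of the same library, however, ribosomal RNA had a lower mean in offspring of nicotine-treated sires in all 4 comparisons of sex and region.

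In dorsal hippocampus there were 118, 125 and 132 ribosomal RNA counts per 1000 mitochondrial messenger counts in nicotine-sired sons and 133, 154 and 172 in saline-sired sons. Nicotine-sired daughters had 108, 111 and 105 and saline-sired daughters 110.5, 138 and 132, the second group overlapping the first at daughter A. Over both sexes the log2 difference was −0.26 (exact permutation p = 0.0100, adjusted p = 0.0900). Ventral values were 117, 130.4 and 130.8 against 143, 148 and 180 in sons, and 117, 113 and 109 against 122, 126 and 137 in daughters. Neither ventral pair overlapped, and the log2 difference of −0.25 had an exact permutation p = 0.00500, the smallest that 400 regroupings can give, and an adjusted p = 0.0900. The dorsal and ventral values come from the same 12 animals and are not independent of each other.

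Nuclear RNAs without a poly(A) tail were compared per CPM, not against mitochondrial messengers. On that scale the ribosomal RNAs had median log2 differences of 0.04 in dorsal and 0.08 in ventral sons, and of −0.17 and −0.10 in daughters. Of 10 such nuclear RNAs looked up, 4 passed the low-count filter within a region. All 4 had negative log2 differences in each of the 4 comparisons of sex and region. Over both sexes the median was −0.43 in dorsal hippocampus, where edgeR called none and none had an unadjusted p under 0.05, and −0.95 in ventral hippocampus. There all 4 had an unadjusted p under 0.05 and Rn7sk, the RNA of the 7SK particle, was called (log2 difference −0.58 ± 0.11, edgeR adjusted p = 0.0167). Summed levels of the 10 were 13.3, 12.3 and 18.6 CPM in ventral nicotine-sired and 23.8, 31.4 and 45.4 CPM in saline-sired daughters, and 13.9, 17.8 and 27.8 against 20.75, 25.5 and 36.6 CPM in ventral sons, which overlapped. Dorsal libraries overlapped too, at 4.11 to 35.7 against 10.1 to 32.4 CPM, and Snord118 was at 0 in all 24. The part of poly(A) selection in the ribosomal RNA differences was not tested.

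Transfer RNA counts had the opposite direction against messengers. In dorsal daughters there were 4.73, 5.02 and 4.68 transfer RNA counts per 1000 messenger counts with nicotine-treated sires and 2.90, 3.61 and 3.54 with saline-treated sires, while sons overlapped at 6.07, 5.53 and 4.995 against 4.98, 6.45 and 4.37. The dorsal log2 difference over both sexes was 0.30 (exact permutation p = 0.0350, adjusted p = 0.210). In ventral hippocampus sons had 5.38, 4.86 and 5.63 against 4.78, 4.62 and 3.59, and daughters 4.64, 5.04 and 4.52 against 3.11, 4.195 and 4.35, without overlap in either sex. That log2 difference was also 0.30, with an exact permutation p = 0.00500 and an adjusted p = 0.0900. None of the 36 exact tests passed 0.05 after adjustment.

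The strands contributed unequally to these ratios. In ventral sons heavy-strand transfer RNA genes overlapped, with 4.20, 4.04 and 4.21 counts per 1000 messenger counts in nicotine-sired and 4.60, 4.315 and 3.47 in saline-sired libraries (means 4.15 and 4.13), while light-strand ones had 1.18, 0.817 and 1.42 against 0.178, 0.307 and 0.118. In ventral daughters the heavy-strand values of 4.345, 4.44 and 4.06 against 2.93, 4.01 and 4.21 overlapped, and the light-strand values of 0.296, 0.603 and 0.457 against 0.176, 0.183 and 0.140 did not. The gap in ventral sons thus lay in the light-strand genes, whose summed ratio was 0.817 to 1.42 in the 6 libraries with the highest nuclear antisense ratio, described below, and at most 0.603 in the other libraries. Dorsal daughters did not overlap in heavy-strand values, at 4.39, 4.52 and 4.36 against 2.71, 3.42 and 3.42.

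**Figure D3:**
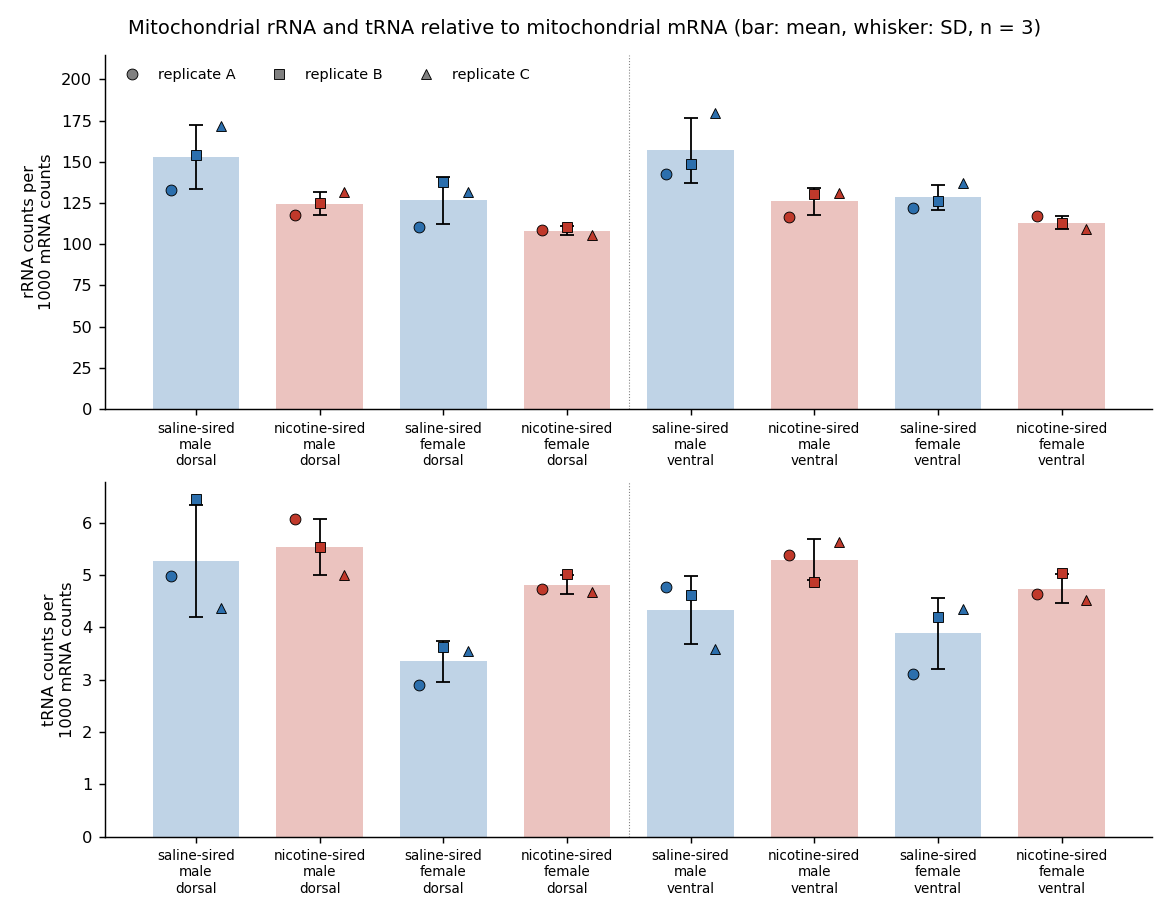
Mitochondrial ribosomal RNA (top) and transfer RNA gene counts (bottom) per 1000 mitochondrial messenger RNA counts in each library, by group (bars are means, whiskers SDs, n = 3). In each pair of sex and region the nicotine-sired mean is lower for ribosomal RNA, and it is higher for transfer RNA genes, by least in dorsal sons.

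Single heavy-strand transfer RNA genes separated in dorsal daughters. mt-Td, next to mt-Co2, had 76.1, 65.0 and 60.3 CPM in nicotine-sired and 26.9, 38.7 and 39.7 CPM in saline-sired dorsal daughters, a log2 difference of 0.94 ± 0.23 (edgeR adjusted p = 0.196). In dorsal sons it had 75.3, 90.2 and 113 against 63.4, 75.6 and 43.5 CPM, which overlapped by 1 library. mt-Tl1 had 110.4, 95.9 and 88.9 CPM against 68.6, 78.2 and 81.0 in dorsal daughters and 98.5, 103 and 104 against 88.1, 90.2 and 76.9 in dorsal sons, without overlap in either.

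Of the 13 heavy-strand transfer RNA genes with a mean of at least 0.5 CPM, 10 lay wholly higher in dorsal nicotine-sired daughters (8.42% of all genes) and 6 of 13 in dorsal sons (13.4% of all genes). In the test over both sexes in dorsal hippocampus, mt-Ti, between mt-Nd1 and mt-Nd2, had the lowest adjusted p of the 37 genes, with a log2 difference of 0.45 ± 0.08 (edgeR adjusted p = 0.0644). That test called 0 of 37, and 0.0784% of all genes. An unadjusted p under 0.05 was found for 19 of the 37, all with a higher level in nicotine-sired offspring, against 10.8% of all genes in either direction. DESeq2 called 7 (1.30% of all genes): mt-Tf, mt-Tl1, mt-Ti, mt-Tw, mt-Td, mt-Tr and mt-Nd4. In ventral hippocampus mt-Td overlapped in both sexes, with log2 differences of 0.35 ± 0.50 in sons and 0.19 ± 0.50 in daughters.

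The mitochondrial genes that edgeR called for sire treatment were light-strand genes in ventral hippocampus, and none of these calls was made once the nuclear antisense ratio described below entered as a covariate. Over both sexes 5 of the 37 genes were called there, all higher in offspring of nicotine-treated sires and all on the light strand, where 1.10% of 19224 genes were called higher and 1.75% in either direction. They were mt-Nd6, mt-Ts1, mt-Te, mt-Tn and mt-Tc. mt-Tc was at 0.402 to 0.842 CPM in nicotine-sired sons and at most 0.218 CPM in the other 9 ventral libraries. It passed the low-count filter only through the group where it was high, so its call here and in sons is not separate support. An unadjusted p under 0.05 was found for 17 of the 37 (15.7% of all genes), and DESeq2 called 7 (3.54%), with mt-Ty and the heavy-strand gene mt-Nd5 added. Without saline-sired daughter C edgeR called 0, and without any 1 of 5 other animals it called 3. The share of all genes called in these refits is not given here. The median log2 difference of the 37 genes was 0.29, against 0.01 for all genes tested.

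Markers of other cell types moved in the same comparison. Of 5 blood cell genes 4 were called higher by edgeR, with summed levels of 391 to 486 CPM in ventral nicotine-sired and 282 to 377 CPM in ventral saline-sired libraries. Among 9 endothelial genes 3 were called higher (Slco1a4, Kdr and Tek) and 2 lower (Slc2a1 and Ly6c1), and their summed levels overlapped at 283 to 325 against 289.5 to 347 CPM. The microglial genes P2ry12 and Cx3cr1 were called higher among 9, with summed levels of 327 to 430 against 359 to 411 CPM. All 11 choroid plexus genes had positive differences (median 1.70) and none was called by edgeR, 8 with an unadjusted p under 0.05. Their summed level was 2690 and 2810 CPM in nicotine-sired daughters B and C and at most 321 CPM in the other 10 ventral libraries. Among 7 oligodendrocyte genes Opalin was called higher (log2 difference 0.43 ± 0.07, edgeR adjusted p = 0.00708), while 5 of the 7 were negative (median −0.09). Their summed levels overlapped at 3578 to 4091 against 3538 to 4870 CPM. None of the neuronal or astrocyte genes was called. No gene of these lists was at 0 in all libraries. The part of these cell types in the mitochondrial differences was not tested.

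mt-Nd6, the Complex I subunit encoded apart from the rest, had 95.2, 103 and 139 CPM in ventral nicotine-sired sons and 36.8, 47.9 and 27.2 CPM in saline-sired sons, so that the lowest of the first exceeded the highest of the second. In ventral daughters it had 50.4, 70.4 and 71.6 CPM against 54.1, 55.5 and 48.0, with nicotine-sired daughter A inside the saline-sired range. The log2 difference was 0.94 ± 0.15 over both sexes (edgeR adjusted p = 0.0134), 1.59 ± 0.22 in sons (edgeR adjusted p = 0.00347) and 0.29 ± 0.21 in daughters (edgeR adjusted p = 0.583). The difference between the sexes was −1.30 ± 0.30 and did not pass (edgeR adjusted p = 0.0837). Per 1000 mitochondrial messenger counts, the ventral log2 difference of mt-Nd6 was 0.725 over both sexes (exact permutation p = 0.0200, adjusted p = 0.144). In sons it was 1.26 (exact permutation p = 0.1, adjusted p = 0.212), and the difference between the sexes was −1.07 (exact permutation p = 0.0100, adjusted p = 0.0900).

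mt-Ts1, a serine transfer RNA gene, had 69.4, 69.2 and 130 CPM in ventral nicotine-sired sons and 8.54, 18.3 and 3.29 CPM in saline-sired sons. Daughters had 21.2, 41.8 and 31.2 CPM against 8.72, 8.13 and 6.35. Neither sex overlapped. Its log2 difference was 2.58 ± 0.40 over both sexes (edgeR adjusted p = 0.0156), 3.15 ± 0.56 in sons (edgeR adjusted p = 0.0200) and 2.02 ± 0.56 in daughters (edgeR adjusted p = 0.201). mt-Te, the glutamate transfer RNA gene beside mt-Nd6, had 7.95, 7.14 and 13.2 CPM against 1.73, 1.82 and 0.448 in ventral sons and 2.16, 5.27 and 4.18 against 1.48, 2.095 and 1.305 in ventral daughters, a log2 difference of 2.02 ± 0.33 over both sexes (edgeR adjusted p = 0.0138). The other called genes had few reads. mt-Tn had 49, 41 and 82 counts in ventral nicotine-sired sons and 12, 12 and 2 in saline-sired sons, and mt-Tc 32, 19 and 33 counts against 5, 1 and 0, so that the fitted size of its change (2.16 ± 0.46 over both sexes, edgeR adjusted p = 0.0257) rests on few counts.

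In ventral sons alone 6 of 37 were called, all higher and all on the light strand (1.82% of all genes were called higher, 3.21% in either direction): mt-Nd6, mt-Ts1, mt-Te, mt-Tc, mt-Tn and mt-Ta, the last with 72, 52 and 86 counts against 19, 38 and 8. An unadjusted p under 0.05 was found for 15 (15.8% of all genes), and DESeq2 called 8 (4.65%). Without nicotine-sired son A, edgeR called 11, and the share of all genes called in that refit is not given here. The test of the difference between the sexes in ventral hippocampus called 0 of 37 (1.07% of all genes), with an unadjusted p under 0.05 for 6 (14.2%) and 1 called by DESeq2 (2.72%), so the effect was not shown to differ between sons and daughters.

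Dorsal light-strand values did not separate by sire treatment in sons. mt-Nd6 had 94.0, 121 and 41.0 CPM in dorsal nicotine-sired and 33.2, 84.3 and 44.3 CPM in saline-sired sons, and mt-Ts1 had 95.9, 103 and 17.9 against 10.9, 81.7 and 3.05. In both genes nicotine-sired son C stood with the low libraries and saline-sired son B with the high ones. Dorsal daughters had lower mt-Nd6 with nicotine-treated sires, at 49.1, 45.7 and 39.0 CPM against 55.1, 62.5 and 54.2, and higher mt-Ts1, at 27.1, 34.1 and 19.8 against 11.02, 8.21 and 4.87, neither of which was called. The mt-Nd6 values of dorsal daughters did not overlap, as for 10.7% of all genes in that direction. The test of whether the effect of sire treatment differed between the regions called 0 of 37 genes and 0 of 19849 in all, by edgeR and by DESeq2. An unadjusted p under 0.05 was found for 3 of the 37 (4.76% of all genes).

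**Figure D4:**
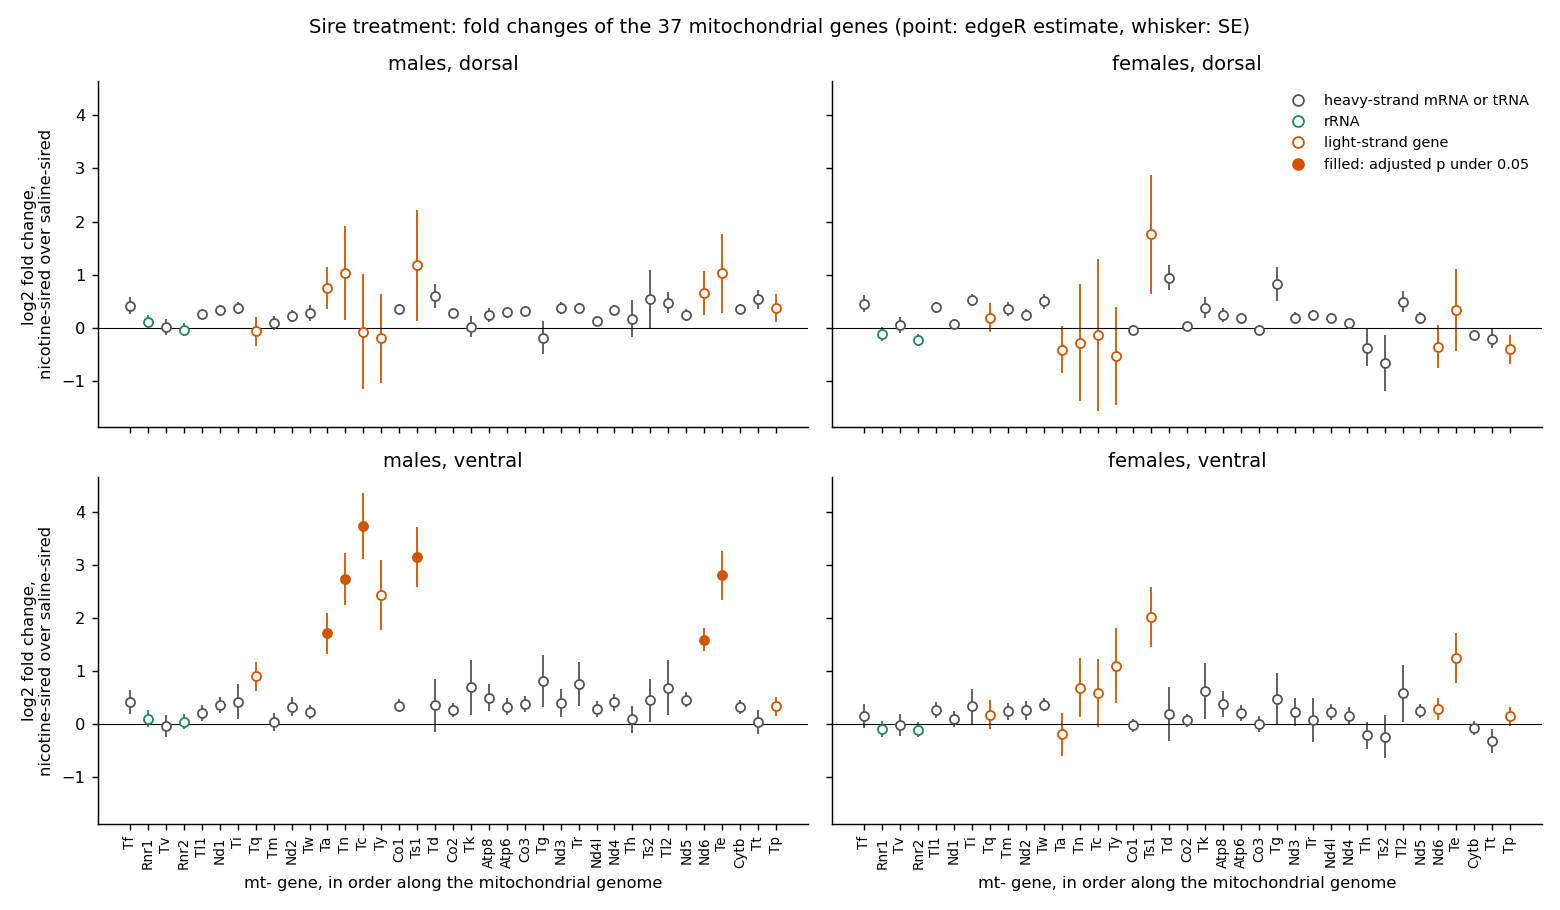
Log2 fold change (nicotine-sired over saline-sired, edgeR estimate with its SE) of the 37 mitochondrial genes in order along the genome, for each sex and region. The filled points are the 6 genes called in ventral sons, all on the light strand, with mt-Nd6 at 1.59 and mt-Ts1 at 3.15.

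Light-strand levels moved with another property of the libraries. A ratio was formed from 393 nuclear antisense genes and their 376 host genes. The antisense counts were summed as a percentage of the host counts. Hosts were at 50 CPM or more, and antisense counts were at most 0.05 of the host. This ratio ran from 0.209% to 0.494% (median 0.275%). It was at least 0.4%, a limit chosen after the values were seen, in 6 libraries: nicotine-sired sons A and B and saline-sired son B in dorsal hippocampus, and all 3 nicotine-sired sons in ventral hippocampus. The same 6 libraries had the highest mt-Nd6, mt-Ts1 and mt-Te of their region. mt-Nd6 was at 84.3 to 121 CPM in the 3 such dorsal libraries and at 33.2 to 62.5 CPM in the other 9, and ventral values were 95.2 to 139 CPM against 27.2 to 71.6 CPM. For mt-Ts1 the ranges were 81.7 to 103 against 3.05 to 34.1 CPM in dorsal and 69.2 to 130 against 3.29 to 41.8 CPM in ventral libraries. The heavy-strand genes mt-Nd5, mt-Co1 and mt-Cytb overlapped between the 2 sets of libraries in both regions. In ventral hippocampus, however, nicotine-sired sons B and C were above all 9 other libraries in each of the 3 genes, and son A was within their range. mt-Nd5, for example, had 3538, 5051 and 5033 CPM in the 3 libraries and 2671 to 4775 CPM in the other 9 (median 3917).

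In ventral hippocampus a ratio of at least 0.4% and being a nicotine-sired son fell on the same 3 libraries and cannot be told apart. With the log2 of the ratio as a covariate, added after the data were seen, edgeR called 0 of 37 mitochondrial genes and 0% of all genes in ventral hippocampus, over both sexes and in sons. The log2 difference of mt-Nd6 was then −0.15 ± 0.27 over both sexes, and that of mt-Ts1 was −0.07. In dorsal hippocampus the 9 libraries with a ratio under 0.4% gave 0 called of 37 for sire treatment (0% of all genes). The strand setting of the authors' counting is not given in the sources used here, so how far reads from opposite strands at the same place were told apart was not tested.

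**Figure D5:**
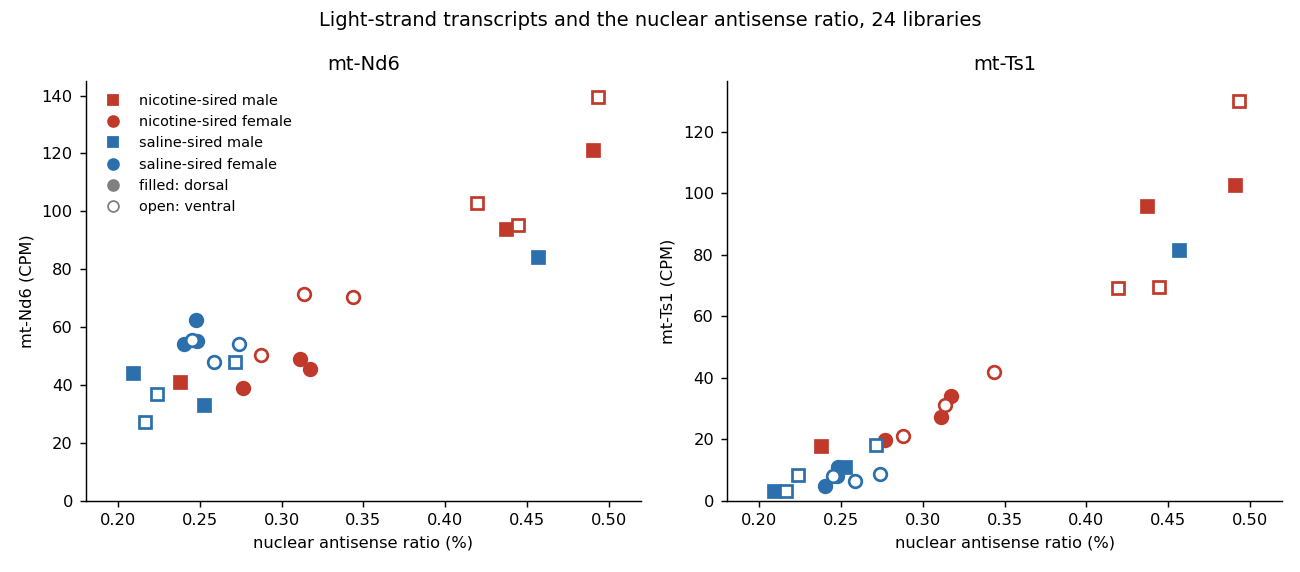
Level of mt-Nd6 (left) and mt-Ts1 (right), in CPM, against the nuclear antisense ratio in percent, for each of the 24 libraries, by group. The 6 libraries at 0.4% or more, 5 from nicotine-sired sons and 1 from a saline-sired son, have 84.3 to 139 CPM of mt-Nd6 and 69.2 to 130 CPM of mt-Ts1, above every other library.

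Between the sexes, transfer RNA genes tended to be lower in daughters than in sons in dorsal hippocampus, mostly without passing the test. All 8 light-strand transfer RNA genes had negative log2 differences (daughters minus sons, median −1.03), as had 13 of the 14 heavy-strand ones (median −0.21), while the median over all genes was 0.00. An unadjusted p under 0.05 was found for 10 of the 37, 9 transfer RNA genes and mt-Rnr2, all lower in daughters, against 8.12% of all genes in either direction. All 3 dorsal libraries with an antisense ratio of at least 0.4% were from sons. edgeR called 1 of 37, mt-Tr, an arginine transfer RNA gene between mt-Nd3 and mt-Nd4l (0.183% of all genes were called). It had 14.3, 12.4 and 12.6 CPM in nicotine-sired and 11.6, 10.8 and 11.0 CPM in saline-sired daughters, and 18.7, 18.6 and 18.02 CPM in nicotine-sired and 13.4, 16.04 and 13.4 CPM in saline-sired sons. Daughters were lower by a log2 difference of −0.43 ± 0.07 (edgeR adjusted p = 0.0181), though the daughters of nicotine-treated sires overlapped the sons of saline-treated ones. DESeq2 called 3 (0.592% of all genes). edgeR's call was lost when the antisense ratio entered as a covariate (0.115% of all genes), among the 9 dorsal libraries under 0.4% (0.0448%), and when any 1 of 7 of the 12 animals was left out. In ventral hippocampus 0 of 37 were called for sex by edgeR (0.291% of all genes), an unadjusted p under 0.05 was found for 1 (11.9%), and DESeq2 gave 0 calls (1.37%).

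Between dorsal and ventral hippocampus edgeR and DESeq2 each called 1 of the 37 mitochondrial genes, where 29.2% of all genes were called by edgeR and 30.7% by DESeq2. The 37 log2 differences ran from −0.38 to 0.44, with a median of −0.01. The summed share was 9.65% ± 0.76 (SD, n = 12) in dorsal and 9.82% ± 1.21 (SD, n = 12) in ventral libraries. Within animals the ventral share was higher in 9 of 12, with log2 differences from −0.23 to 0.24, and the sign-flip test over animals (exact permutation, 4096 sign patterns) gave p = 0.653. The median of the within-animal log2 differences was 0.03. mt-Tq, a glutamine transfer RNA gene with a mean of 45.7 counts, was the one called, higher in ventral hippocampus by 0.44 ± 0.14 (edgeR adjusted p = 0.0173), at 0.605 to 1.93 CPM in all. Without nicotine-sired daughter C or saline-sired daughter B it was not called.

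Few nuclear genes that work with the mitochondrial genome were called for sire treatment. Over both sexes edgeR called 0 of the 17 genes of mitochondrial DNA transcription and replication, 0 of 27 of mitochondrial RNA processing and decay, 0 of 13 regulators of biogenesis and 0 of 78 mitochondrial ribosomal proteins, in dorsal and in ventral hippocampus alike. Of all genes, only 0.0784% were called in dorsal and 1.75% in ventral hippocampus. Unadjusted p-values were under 0.05 for 3, 1, 1 and 3 of them in dorsal (10.8% of all genes) and for 3, 3, 3 and 22 in ventral hippocampus (15.7% of all genes). The mitochondrial ribosomal proteins of ventral hippocampus were negative in 68 of 78, with a median log2 difference of −0.09. In ventral sons Twnk, the helicase that unwinds mitochondrial DNA for replication, fell by 0.33 on the log2 scale (SE 0.08, edgeR adjusted p = 0.0338). It was the only gene of its list of 17 called there (3.21% of all genes were called), and 7 had an unadjusted p under 0.05 (15.8% of all genes).

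The nuclear partners of the mitochondrial subunits had smaller differences than the mitochondrial messengers. In dorsal sons the median log2 difference was 0.10 over 36 nuclear Complex I genes, with 32 of 36 positive, and 0.11 over 16 ATP synthase genes, with 15 of 16 positive. edgeR called none of them (1.78% of all genes were called), and an unadjusted p under 0.05 was found for 7 of the 36 and 0 of the 16 (17.6% of all genes). In dorsal daughters the median was −0.06 in each list, with 7 of 36 and 5 of 16 positive, and none was called (0.0314% of all genes). In ventral hippocampus over both sexes the nuclear and mitochondrial parts differed in sign: 2 of 36 nuclear Complex I genes were positive, with a median of −0.09, while mt-Nd1, mt-Nd2, mt-Nd3, mt-Nd4, mt-Nd4l and mt-Nd5 had log2 differences from 0.23 to 0.36. edgeR called none of these nuclear or mitochondrial genes (1.75% of all genes were called). An unadjusted p under 0.05 was found for 9 of the 36 nuclear ones (15.7% of all genes), and DESeq2 called mt-Nd5. The light-strand Complex I gene mt-Nd6 was called, at 0.94.

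Of 20 mitochondrial stress response and protease genes tested, 3 were called by edgeR in dorsal sons (1.78% of all genes) and 2 in ventral sons (3.21%). Hspe1 and Hspd1, the paired chaperonins that fold proteins in the mitochondrial matrix, were lower in nicotine-sired sons in both regions. Hspe1 fell by 0.34 in dorsal (SE 0.08, edgeR adjusted p = 0.0406) and by 0.45 in ventral sons (SE 0.09, edgeR adjusted p = 0.0147), on the log2 scale. Hspd1 fell by 0.28 in ventral sons (SE 0.06, edgeR adjusted p = 0.0234). Spg7, a subunit of the protease of the inner membrane, rose by 0.32 in dorsal sons (SE 0.06, edgeR adjusted p = 0.0305).

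Between the regions edgeR called nuclear genes of these lists in both directions, where 14.3% of all genes were called higher and 14.9% lower in ventral hippocampus. Among 13 regulators of biogenesis 2 were higher and 5 lower. Ppargc1a, the coactivator of mitochondrial biogenesis, was higher (0.36 ± 0.08, edgeR adjusted p = 0.000972), and Gabpa, a subunit of the transcription factor NRF-2, was lower (−0.25 ± 0.05, edgeR adjusted p = 0.00135), as were Gabpb1 and Yy1. Among 17 genes of mitochondrial DNA transcription and replication, Top1mt, the mitochondrial topoisomerase, was higher (0.32 ± 0.04, edgeR adjusted p = 2.48e-06), and 3 were lower, the polymerase gene Polg, Mterf1b and Mterf3. Higher calls numbered 4 of 19 nuclear genes of Complexes III and IV and 5 of 16 of ATP synthase, with none lower. The 5 of 36 higher calls in nuclear Complex I, again with none lower, were no larger a share than over all genes. Cyc1, the cytochrome c1 subunit that pairs with mt-Cytb in Complex III, was higher by 0.17 ± 0.04 (edgeR adjusted p = 0.00317), whereas mt-Cytb differed by 0.03 ± 0.06.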

How the data were processed

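Total RNA was extracted with an AllPrep DNA/RNA kit and sequenced from TruSeq Stranded mRNA libraries as 150 bp single-end reads on 3 HiSeq2500 lanes, per the labels' protocols. The deposited table holds the authors' whole-number counts per gene for 24 libraries. Build GRCm38 (mm10) and the tools Cuffdiff 2.2.1.3, Cufflinks and TopHat2 2.1.0 come from the submitters' processing notes. How the counts were made (tool, strand setting, annotation, reads with several matches) is not given in the sources used here. CPM scale the counts of a library to 1000000.

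Counts were tested with edgeR 4.0.16 (R 4.3.3; TMM scaling, filterByExpr by group, robust quasi-likelihood F test, Benjamini-Hochberg adjustment over all genes tested, threshold 0.05), with 12 libraries per region for sire treatment and sex and 24 for region. DESeq2 1.42.0 was an alternative, as were other scalings, no filter, a block and leaving out each animal. The code was checked on simulated data. Summed quantities were tested by exact two-sided permutation of sire treatment within sex, over 400 regroupings. Within 1 sex there were 20 regroupings, and p cannot go below 0.1. For the difference between the sexes, sex was permuted within sire treatment instead, so a plain sex difference enters its spread. Sire treatment effects compare nicotine-sired with saline-sired offspring; region compares ventral with dorsal.

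Dorsal and ventral libraries of 1 animal were paired by title: 9 of 12 animals' deviations correlated above 0.1 (median r 0.15). With the animal as a block in the region fit, the same number of 1 mitochondrial gene was called. Mitochondrial genes with a mean of at least 100 counts could be described with values. Of other lists, the called genes (at most 3 per direction) or the one with the smallest p could be named. Nuclear copies were annotated pseudogenes matching the mitochondrial genome over at least 300 bp at 95% identity (BLAST 2.17.0). Members and lists were chosen with earlier results of these data known.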

Additional observations from a re-analysis of the deposited data

How the results depend on the processing

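The number of mitochondrial genes called changed with these settings. For the fits without the filter or with an animal left out, shares over all genes are not given here. Those counts are therefore not read as results about mitochondrial genes. DESeq2 called 7 for sire treatment in dorsal hippocampus over both sexes, 9 in dorsal sons, 3 in dorsal daughters, 2 for the difference between the sexes there, 3 for sex in dorsal hippocampus, 1 in ventral daughters and 1 for the difference between the sexes in ventral hippocampus. Without the low-count filter, edgeR called 2 for sire treatment in dorsal hippocampus. With the antisense ratio as a covariate, chosen after seeing the data, it called 0 for sire treatment in ventral hippocampus, 0 in ventral sons and 0 for sex in dorsal hippocampus, and the last count was also 0 in the 9 dorsal libraries with a ratio under 0.4%. The cause of these changes was not tested. The last of them also rests on fewer libraries.

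Leaving out 1 animal at a time gave 0 to 7 calls in dorsal sons (7 without nicotine-sired daughter A), 0 to 3 for the difference between the sexes in dorsal hippocampus (3 without the same animal), 0 to 2 for sex in dorsal hippocampus (2 without saline-sired son C), 0 to 6 for sire treatment in ventral hippocampus (0 without saline-sired daughter C; 3 without nicotine-sired son C, nicotine-sired daughter B or C, saline-sired son C or saline-sired daughter B), 4 to 11 in ventral sons (11 without nicotine-sired son A), 0 to 3 for the difference between the sexes in ventral hippocampus (3 without nicotine-sired son A, 1 without saline-sired son B) and 0 to 1 for region.

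With the title letter as a replicate block, 5 genes were called for sire treatment in ventral hippocampus, 6 in ventral sons and 0 for sex in dorsal hippocampus. The letters did not pair the animals of different groups (3 letters in each region, median r 0.00, 0 of 6 above 0.1). The block changed no other count.

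The antisense covariate turned signs in single genes. In ventral hippocampus over both sexes the log2 difference became −0.29 for mt-Tn, −0.07 for mt-Ts1 and −0.15 for mt-Nd6, and in ventral sons −1.47 for mt-Ta, −0.33 for mt-Tn, −0.86 for mt-Ts1, −0.075 for mt-Nd6 and −0.17 for mt-Te. mt-Tc kept its sign at 1.44 over both sexes and 2.61 in sons, without a call.

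Summed quantities near 0 also turned sign. Leaving out 1 animal gave −0.051 to 0.074 for the mitochondrial share of counts in dorsal daughters and −0.003 to 0.04 for that share between regions. For mt-Nd6 per 1000 messenger counts it gave −0.18 to 0.19 for sire treatment in dorsal hippocampus, 0.0176 on the linear scale, and −0.02 to 0.20 between regions. For ribosomal RNA per 1000 messenger counts it gave −0.027 to 0.16 for the difference between the sexes in dorsal hippocampus. For transfer RNA per 1000 messenger counts it gave −0.04 to 0.24 in dorsal sons, −0.07 to 0 between regions and −0.15 to 0.13 for the difference between the sexes in ventral hippocampus, which was −0.036 with the other denominator and −0.11 on the linear scale. The differences of ribosomal RNA and transfer RNA against messengers over both sexes kept their sign in all 15 alternatives in each region. Counting error is relatively widest in the 8 genes with fewer than 100 counts on average, of which mt-Tn, mt-Tc, mt-Ta and mt-Tq were nevertheless called in at least 1 comparison.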
